A study of Arabidopsis thaliana with 39 samples.

Results

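Among the 36 RNA libraries of whole Arabidopsis thaliana seedlings, 7 had almost no mRNA of CCA1 (AT2G46830), a transcription factor of the circadian clock that peaks around dawn. All 7 are replicate 3 of their group. They were chosen by a CCA1 level under 2.5 on the log2 CPM scale, where CPM is edgeR's count scaled to TMM-adjusted library size, and each was set against replicates 1 and 2 of its own group, 14 libraries called mates here. The member nearest to that limit stood at 1.08 log2 CPM and the lowest of the other 29 libraries at 4.24. The groups were wild type (WT) under 100 mM NaCl for 12 h, and the glyI2 mutant and the lines OE1 and OE5 each under mock treatment and under the same NaCl treatment. OE1 and OE5 are lines #1 and #5 carrying 35S::GLYI2 and 35S::GLYII4, so both transgenes have a constitutive promoter. The other 5 groups, whose replicate 3 was not low in CCA1, were WT under mock and all 4 genotypes under 200 µM methylglyoxal (MG) for 12 h. All seedlings were 5 days old and grown on solid medium with half-strength Murashige and Skoog salts. The labels name no separate culture, harvest time or day for any replicate, so a p-value here compares a difference with the scatter among libraries, part of which may be technical.

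The libraries held 21024878 to 22383131 counts each. The 7 chosen libraries had 21992957 to 22383131 and their mates 21037549 to 22046320. The 50 most abundant genes took 14.2% to 17.9% of the counts in the 7 libraries and 17.0% to 29.1% in the mates. GLYI2 (AT1G08110), a glyoxalase I gene, stood at 4.56 to 9.47 CPM in the 9 libraries labelled glyI2 and at 42.9 to 70.6 CPM in WT. Across the 18 OE1 and OE5 libraries it ranged from 20.4 to 61.1 CPM, so it did not exceed WT, although their label names 35S::GLYI2, and GLYII4 (AT2G43430), a glyoxalase II gene, stood at 22.2 to 41.2 CPM under mock and NaCl against 8.33 to 13.2 CPM in WT under all 3 treatments. In the 6 MG libraries of these lines, which enter the comparison of the other 5 groups, it stood at 167 to 381 CPM. The difference between replicate 3 and its mates was 0.07 ± 0.14 (log2, SE) for GLYI2 and 0.22 ± 0.12 for GLYII4 over the 7 groups. In whole seedlings, fewer cells of a type and less mRNA per cell cannot be told apart.

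The plant circadian clock is a set of transcription factors that repress each other in turn over the day. CCA1 and LHY act around dawn, the PRR proteins follow through the day, and TOC1 and the evening complex of ELF3, ELF4 and LUX act towards and after dusk. Many genes of photosynthesis, starch turnover, growth and iron uptake are known to follow this cycle in seedlings. Because the libraries were selected on CCA1, every difference between them and their mates is given as a description, without a test. Of the 20748 genes tested, replicate 3 stood above both mates in all 7 groups for 1956 genes (9.43%) and below both mates in all 7 for 1625 genes (7.83%). The model fitted to all genes gave 41.1% of them an adjusted p under 0.05, from which nothing is read since CCA1 chose the libraries. The median difference over all genes was 0.0054 (log2). Among the genes outside both mates in all 7 groups, 360 (1.74% of those tested) were at least 2-fold higher and 661 (3.19%) at least 2-fold lower. Over all tested genes, without that condition, 522 were at least 2-fold higher and 1046 at least 2-fold lower. Among the genes outside both mates in all 7 groups, differences of at least 16-fold were found in the lower direction for 30 and in the higher direction for 0.

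CCA1 itself stood at 0.176, 1.01 and 2.02 CPM (lowest, median and highest) in the 7 libraries and at 20.1, 40.1 and 79.0 CPM in the mates. Its partner LHY, a MYB factor much like CCA1, stood at 2.72, 5.63 and 8.29 CPM against 68.5, 99.4 and 138 CPM. The libraries and their mates did not overlap for either gene, for CCA1 by the rule itself, and the differences were −5.46 ± 0.36 and −4.28 ± 0.21. How many of all genes have ranges that do not overlap was not counted. Among the 4 LNK coactivators, which work with the RVE factors, LNK3 and LNK4 had the lowest values relative to mates, at −6.24 ± 0.38 and −6.32 ± 0.37. LNK2 stood at 2.13, 3.29 and 5.46 CPM against 59.8, 125 and 217 CPM. The day-phase repressors PRR9 and PRR7 stood lower by −4.27 ± 0.52 and −3.09 ± 0.41, although PRR9 was weakly expressed in the mates too, at 0.527 to 2.40 CPM. RVE8, an activator of evening genes, stood at 4.93, 5.98 and 7.62 CPM against 25.8, 35.3 and 47.0 CPM. In all, 12 of the 14 morning genes stood below both mates in every one of the 7 groups, with a median of −3.19 over the list. Both values include CCA1, whose place below its mates was fixed by the rule. RVE2 did the opposite, at 76.7 to 129 CPM against 22.0 to 63.2 CPM, above both mates in all 7 groups, and RVE6 was near 0 (−0.12 ± 0.14).

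Of the 12 genes listed here as evening genes 6 stood above both mates in all 7 groups and 0 below, with a median of 1.02. TOC1, the repressor that closes the loop with CCA1, stood at 57.9, 63.3 and 71.2 CPM in the 7 libraries and 20.8, 22.4 and 25.8 CPM in the mates. Its differences lay between 1.403 and 1.622 in the 7 groups, so the groups hardly differed in it. PRR5 stood at 11.4, 14.03 and 16.3 CPM against 3.35, 4.62 and 8.59 CPM. FKF1, a blue-light receptor of the photoperiod pathway, stood at 5.71, 8.18 and 12.7 CPM against 0.893, 1.56 and 3.45 CPM, the largest difference of the list (2.32 ± 0.24). ELF3 (1.203 ± 0.15), ELF4 (0.88 ± 0.16) and BOA (1.16 ± 0.11) were also higher in all 7 groups, and PRR3 in 6.

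The evening pattern was partial. GI, a dusk-phased partner of FKF1, stood at 7.41, 10.6 and 13.3 CPM against 7.78, 14.5 and 32.9 CPM, above both mates in 1 group and below both in 3. LUX, the DNA-binding member of the evening complex, differed by 0.30 ± 0.11. ZTL (−0.49 ± 0.14) and LKP2 (−0.39 ± 0.11), which are F-box relatives of FKF1, stood below both mates in 5 groups each, and CHE (−1.08 ± 0.22) in 6. The label evening-like therefore describes low morning genes with TOC1, PRR5, ELF3, ELF4, BOA and FKF1 high, and does not extend to GI, LUX, ZTL, LKP2 or CHE. No library carries a recorded time of day, and the daily phase of the listed mRNAs, ZTL and LKP2 included, was not measured here.

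**Figure D1:**
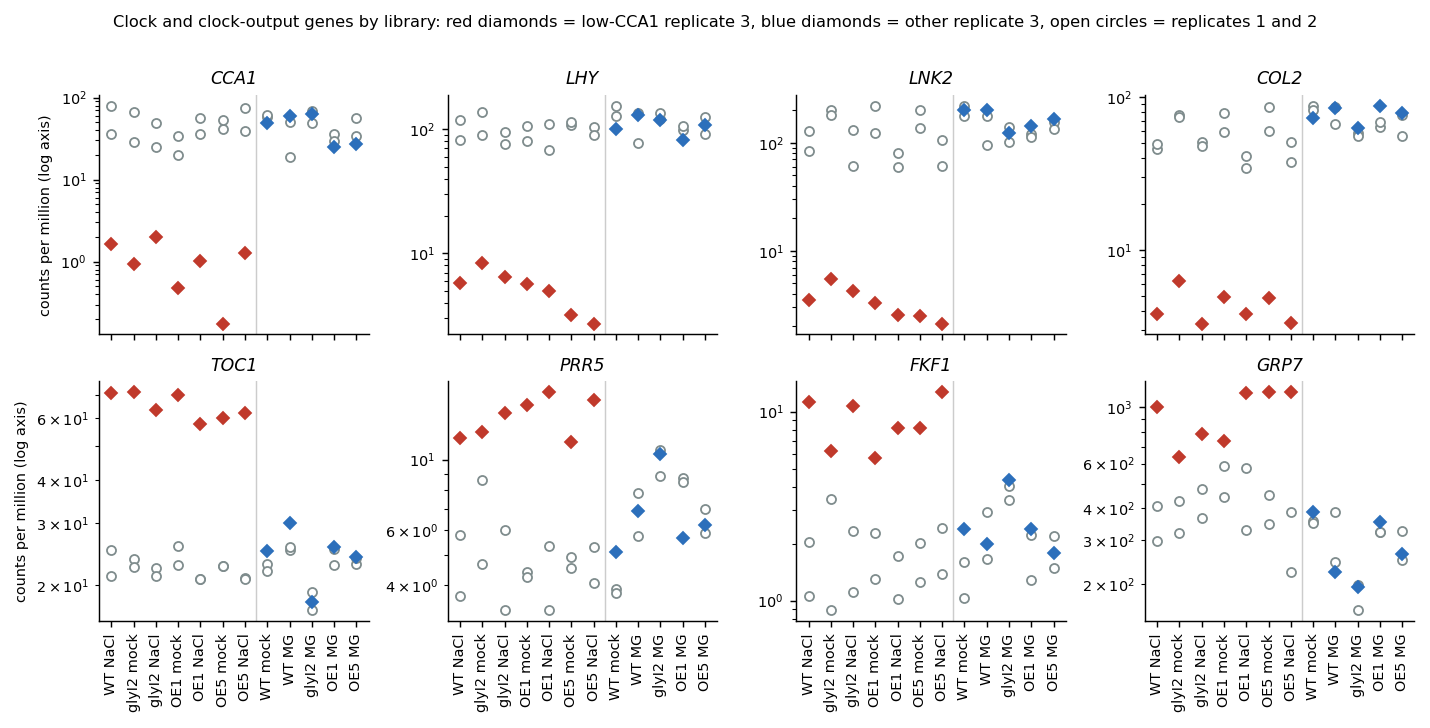
CPM on a log axis for 8 clock and clock-output genes in all 36 libraries, by group: red diamonds are the 7 low-CCA1 replicate 3 libraries, blue diamonds the other 5 replicate 3 libraries and open circles replicates 1 and 2. The red points lie apart from the mates for all 8 genes, whereas the blue points lie among or near theirs. For CCA1 (0.176 to 2.02 CPM against 20.1 to 79.0 CPM) this was fixed by the rule.

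Photoperiod and output genes split by member. COL2, a CONSTANS relative, stood at 3.31, 3.83 and 6.32 CPM against 34.3, 50.7 and 85.4 CPM. CDF3 (−2.75 ± 0.20) and CDF2 (−1.87 ± 0.21), repressors of CONSTANS, and COL1 (−1.34 ± 0.17) were below both mates in all 7 groups. CONSTANS itself (CO) was higher, at 2.28 to 4.42 CPM against 0.475 to 2.31 CPM, as was the RNA-binding protein gene GRP7, at 640, 1005 and 1147 CPM against 223, 397 and 585 CPM. The catalase genes went apart: CAT2 was lower (−0.67 ± 0.15) and CAT3 higher (0.95 ± 0.15), each in all 7 groups. Over the 13 genes of this list 3 were above and 5 below both mates in all 7 groups, with a median of −0.67.

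Growth and light regulators included several low genes. PIF4, a factor that promotes elongation, stood at 0.853, 2.41 and 3.20 CPM in the 7 libraries and 9.31, 22.3 and 51.4 CPM in the mates. PIF5 stood at 7.55, 9.22 and 13.5 CPM against 38.9, 63.5 and 80.1 CPM. The ranges did not overlap for either gene, a feature whose share over all genes was not counted. The auxin-response gene IAA19 was −1.65 ± 0.27, while PIF3 was higher in 6 of 7 groups (0.64 ± 0.10). For the 13 PIF and shade genes 4 were below and 0 above both mates in all 7 groups. Among the 16 light-signalling genes 5 were below and 1 above, with the B-box genes BBX31 (−4.11 ± 0.23), BBX32 (−2.41 ± 0.29) and BBX24 (−1.67 ± 0.15) and the plastid sigma factor gene SIG5 (−2.20 ± 0.21) lowest. The blue-light receptor gene CRY1 was the other lower member (−0.47 ± 0.10), and BBX22 the higher one (0.68 ± 0.12).

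The light-harvesting antenna genes encode the proteins that hold chlorophyll around both photosystems. Of the 20 tested, 17 stood below both mates in all 7 groups and 0 above, with a median of −3.01. Their summed level was 14740, 17479 and 25904 CPM (lowest, median and highest) in the 7 libraries and 49873, 102610 and 168770 CPM in the mates, so the lowest mate lay above the highest of the 7. LHCB2.2, an antenna protein of photosystem II, stood at 12.0, 30.2 and 58.1 CPM against 679, 1466 and 3014 CPM. LHCB1.1 had the largest difference (−6.27 ± 0.45), followed by LHCB2.3 (−6.07 ± 0.38). LHCA1 of photosystem I stood at 321 to 710 CPM against 1265 to 8597 CPM, whereas LHCA6 was near 0 (−0.08 ± 0.13). The LHCB1 genes are near-identical copies, as are LHCB2.1 and LHCB2.2, so the split of reads among them is uncertain. The summed level does not depend on that split within the list.

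Other photosynthesis genes were lower by less. Of the 28 nuclear photosystem and electron-transport genes 14 were below both mates in all 7 groups and 0 above, with a median of −0.89. PSAD-2, a stromal subunit of photosystem I, stood at 211, 249 and 333 CPM against 719, 1272 and 1792 CPM. PSBY (0.08 ± 0.14) and ATPC1 (0.01 ± 0.10) stood near 0. For chlorophyll synthesis 6 of 15 were below and 0 above. CAO, which makes chlorophyll b, stood at 30.6, 34.2 and 44.4 CPM against 103, 153 and 186 CPM, and GUN5, a subunit of magnesium chelatase, at 740 to 966 CPM against 1846 to 3287 CPM. The 17 Calvin cycle genes held 2 above and 2 below, which is not far from the shares over all genes. CP12-1 and CP12-2, small proteins that link Calvin cycle enzymes, differed in opposite directions, at −1.17 ± 0.18 and 0.81 ± 0.12. The others were SBPASE, a bisphosphatase of the cycle, higher by 0.35 ± 0.09, and RCA, the activase of Rubisco, at −0.71 ± 0.15. None of the 9 photorespiration genes was outside both mates in all 7 groups.

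Starch is built in leaves by day and broken down at night. Of the 14 breakdown genes 7 stood above both mates in all 7 groups and 0 below, with a median of 1.14. ISA3, a debranching enzyme, stood at 24.7, 54.8 and 89.9 CPM against 6.02, 12.8 and 19.97 CPM. PHS2, a glucan phosphorylase, stood at 116, 228 and 376 CPM against 28.0, 49.9 and 87.9 CPM. The ranges did not overlap for either, and the share of such genes over all genes was not counted. The phosphatase SEX4 (1.77 ± 0.15), the dikinase PWD (1.51 ± 0.15) and the disproportionating enzymes DPE1 (1.12 ± 0.08) and DPE2 (1.17 ± 0.18) were also higher in all 7 groups. BAM1, a beta-amylase, was not (−0.31 ± 0.12). On the synthesis side 4 of 12 were above and 1 below. The higher genes were plastid PGM (0.96 ± 0.10), the branching enzyme SBE2.1 (0.81 ± 0.11), ISA1 (0.62 ± 0.07) and ADG1, the small subunit of ADP-glucose pyrophosphorylase (0.47 ± 0.09). The lower gene was GBSS1, the granule-bound synthase that makes amylose (−1.84 ± 0.29). Genes of darkness and sugar starvation showed no common direction, with 1 of 18 above and 1 below. These were BT2, a BTB-domain scaffold (2.43 ± 0.20), and DIN6, an asparagine synthetase (−3.95 ± 0.59), which stood at 0.627, 2.17 and 7.09 CPM against 10.8, 31.7 and 115 CPM.

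Iron uptake in roots works by reduction of ferric iron at the surface by FRO2 and import by IRT1, under bHLH factors that are raised when iron is short. Of the 26 tested uptake genes 15 stood below both mates in all 7 groups and 1 above, with a median of −1.54. IRT1 stood at 0.0387, 0.0793 and 0.0880 CPM in the 3 chosen mock libraries and at 42.4, 66.0 and 97.9 CPM (lowest, median and highest) in their 6 mates. Under NaCl it stood at 0 to 0.197 CPM in the 4 chosen libraries and at 0.712, 1.798 and 6.20 CPM in their 8 mates. The chosen libraries lay below their mates in both treatments, and the mates under NaCl lay below those under mock. The bHLH genes BHLH38 (−5.63 ± 0.60), BHLH39 (−3.45 ± 0.36), BHLH100 (−4.87 ± 0.69) and BHLH101 (−4.64 ± 0.38) were below both mates in all 7 groups, and so were the IMA peptide genes IMA1 (−3.93 ± 0.37), IMA2 (−4.39 ± 0.31) and IMA3 (−3.90 ± 0.23), whose products promote the iron-deficiency response. Smaller differences were seen for NAS2, a nicotianamine synthase (−2.37 ± 0.33), BTS, an E3 ligase that restrains the response (−1.24 ± 0.18), and the transporter OPT3 (−1.05 ± 0.19). The member above both mates was BGLU42, a beta-glucosidase (0.73 ± 0.12). The ferritin gene FER4, which encodes an iron-storage protein, was higher at 29.9, 38.7 and 51.5 CPM against 11.3, 17.3 and 28.6 CPM. Root markers beside this result were the general root genes, of which 3 of 5 (PYK10, TIP2;3 and PHT1;1) were below both mates in all 7 groups, with a summed level of 2764 to 5843 CPM against 3994 to 8439 CPM. The 9 root hair markers had 0 outside in either direction and a summed level of 52.2 to 189 CPM against 40.4 to 172 CPM. Their median difference varied by group, at 0.89 and 0.68 in glyI2 and OE1 mock. It was −0.54 to −0.31 in OE5 mock and the 4 NaCl groups. The 11 endodermis and stele markers also had 0 outside, at 111 to 197 CPM against 101 to 222 CPM. The 3 root tip markers went the other way, with a list median of 0.61 and a summed level of 3.02, 4.21 and 7.25 CPM against 1.58, 2.63 and 3.41 CPM, although 0 were outside both mates in all 7 groups. The part of root amount in the iron result was not tested.

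**Figure D2:**
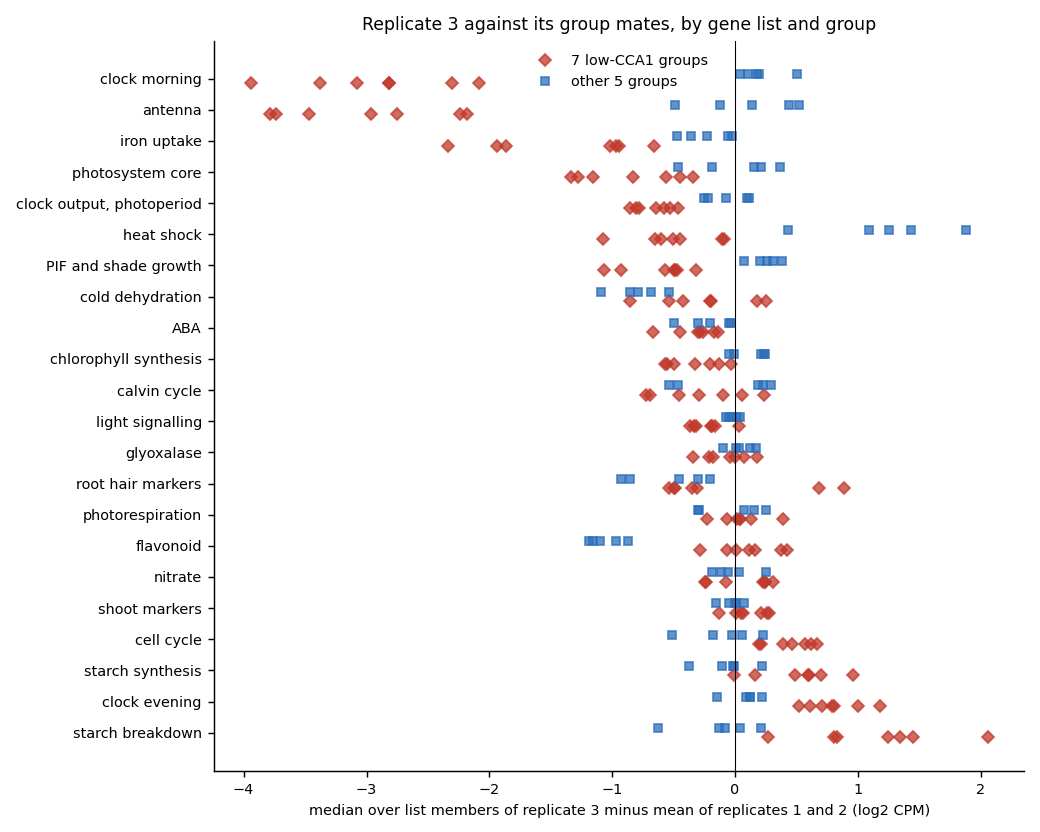
Median over the members of each gene list (vertical axis) of the replicate 3 minus mean mate difference in log2 CPM (horizontal axis), with 1 red diamond for each of the 7 low-CCA1 groups and 1 blue square for each of the other 5 groups. Morning clock genes (−3.94 to −2.08) and antenna genes (−3.78 to −2.18) lie far below 0 in all 7 groups, starch breakdown lies above 0 (0.27 to 2.06), and heat shock lies above 0 in each of the other 5 groups (0.43 to 1.88).

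Stress lists differed gene by gene. COR15B, a cold-regulated chloroplast protein, was higher, at 0.736 to 2.26 CPM in the 3 chosen mock libraries against 0.104 to 0.446 CPM in the mates, and at 17.44 to 33.7 CPM under NaCl against 2.06 to 4.06 CPM. RAB18, a dehydrin responsive to abscisic acid (ABA), was lower, at 0.349 to 1.76 CPM against 5.33 to 12.9 CPM under mock and 14.3 to 66.4 CPM against 82.2 to 643 CPM under NaCl. RD29B went the same way as RAB18 (−2.29 ± 0.21), and so did ABF3, a transcription factor of the ABA pathway (−1.31 ± 0.10). Of the 15 cold and dehydration genes 1 was above and 3 were below both mates in all 7 groups, the third being GOLS1, a galactinol synthase (−1.32 ± 0.18). Of the 19 ABA genes 1 and 1 were, CYP707A2, which breaks down ABA (0.54 ± 0.17), and ABF3. In the jasmonate and defence list of 8, LOX2 (0.76 ± 0.17), JAZ1 (1.398 ± 0.19) and JAZ10 (1.00 ± 0.14) were above, and VSP2 (−1.42 ± 0.24) below. HSP70 was the only 1 of the 12 heat-shock genes outside both mates in all 7 groups, at 47.1 to 181 CPM against 91.5 to 509 CPM. None of the 9 glyoxalase genes was. In the nitrate list UPM1 was above (0.97 ± 0.13), and NIA2, a nitrate reductase (−0.74 ± 0.17), and NRT3.1 (−1.12 ± 0.16) were below. In the cell cycle list 2 of 16 were above, the cyclins CYCB1;1 (0.77 ± 0.19) and CYCD3;1 (0.69 ± 0.10). CAT1, the last catalase gene, was above (1.00 ± 0.09), and C4H of the flavonoid list (−0.72 ± 0.12) and SAG13 of the senescence list (−1.92 ± 0.40) were below. Over all genes 9.43% were above and 7.83% below. The counts for the ABA, heat-shock, nitrate, cell cycle and flavonoid lists are not far from these shares and are not read as results about the lists.

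Both shoot and root markers were present in the 7 libraries. The 8 shoot markers summed to 137 to 171 CPM against 101 to 192 CPM in the mates, with 0 outside in either direction in all 7 groups. Seed-storage markers were near 0, at 0.0792 to 0.903 CPM against 0 to 1.51 CPM, and 1 of 3 passed the expression filter. Of the 4 epidermis genes 2 were below in all 7 groups, FDH (−0.84 ± 0.15) and ATML1 (−0.36 ± 0.12), and of the 8 stomatal genes 1 was above, EPF2 (0.74 ± 0.17). The stomatal count is not far from the share of 9.43% over all genes. The summed stomatal level was 862 to 1315 CPM against 481 to 1823 CPM. Neither set was tested for its part in the differences above.

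Outside the lists, the lower genes with the largest differences included BBX16, a B-box protein gene, at 0 to 0.264 CPM against 23.2, 32.2 and 53.1 CPM, and CIPK20, a protein kinase gene (−6.72 ± 0.61). On the higher side AT5G23240 had the largest difference (3.84 ± 0.23), from 0.589 to 4.70 CPM in mates to 11.4 to 72.9 CPM. It was followed by COR27, a cold-responsive clock-associated gene, at 11.2, 14.3 and 17.5 CPM against 0.536, 1.33 and 2.34 CPM, and by MES18 (3.39 ± 0.30). JMJD5, a jumonji-domain gene that the clock regulates in Arabidopsis, stood at 55.1, 66.5 and 80.2 CPM against 4.24, 7.998 and 9.85 CPM. NYC1, which reduces chlorophyll b, was at 117 to 236 CPM against 13.3 to 40.8 CPM, and GPT2, a plastid glucose-phosphate carrier, at 6.38 to 150 CPM against 0.724 to 42.7 CPM. The ranges of GPT2 overlapped. These genes were picked by the size of their difference and for lying outside both mates in all 7 groups. Separate ranges among them are therefore not read as a result.

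The 7 replicate 3 difference profiles were alike but not equal. Over the 20748 genes, which are not independent replicates, Pearson's r between the profiles of 2 groups was 0.179 to 0.806, with a median of 0.589 over 21 pairs. Between the 7 profiles and those of the other 5 groups r was −0.432 to 0.6, with a median of 0.0641 over 35 pairs. WT MG reached 0.6 with glyI2 NaCl, 0.432 with OE1 mock and 0.425 with glyI2 mock, above the lowest pair among the 7. The profiles of WT NaCl, glyI2 mock, glyI2 NaCl and OE1 mock correlated with each other at 0.654 to 0.806, and those of OE1 NaCl, OE5 mock and OE5 NaCl at 0.695 to 0.734. Between these sets r was 0.179 to 0.608. A library's correlation with gene length had opposite signs of shift in these sets, which were formed after the profiles were seen. Spearman's rho between length and the deviation from the gene's mean in replicate 3 minus the mean of its mates was 0.169 to 0.543 in the first set and −0.247 to −0.139 in the second. Among the other 5 groups it ran from −0.370 in OE5 MG to 0.400 in WT MG, so such shifts were not particular to the 7. In WT NaCl, OE1 NaCl and OE5 mock the replicate 3 value lay between those of its mates, so in 3 of the 7 groups the shift was within their spread. Its part in the profiles was not tested. The number of genes at least 2-fold higher in replicate 3 ranged from 635 in OE1 NaCl to 2836 in glyI2 NaCl, and the number at least 2-fold lower from 1045 in WT NaCl to 2127 in OE5 mock.

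**Figure D3:**
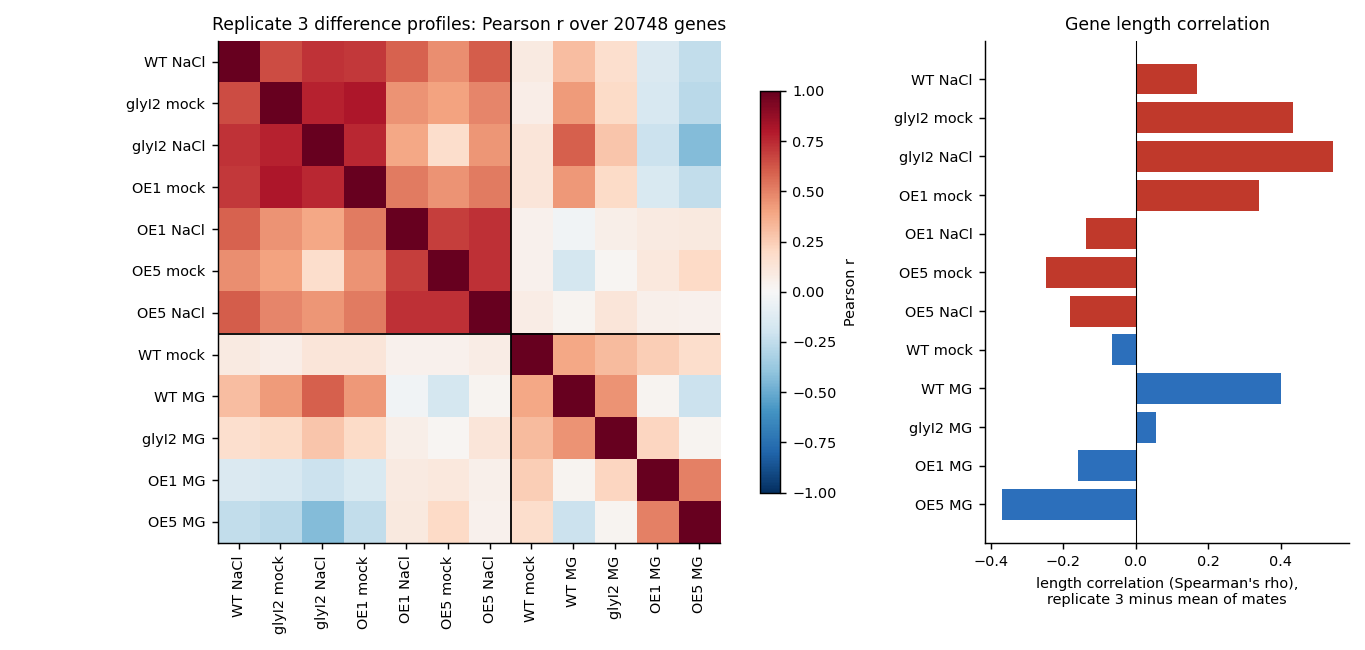
Left, Pearson's r over 20748 genes between the replicate 3 difference profiles of 12 groups, the 7 low-CCA1 groups first and the other 5 after the line. Right, the gene length correlation of replicate 3 minus the mean of its mates (Spearman's rho) per group. The 7 groups form a block of positive r (0.179 to 0.806) with 2 sub-blocks whose length values have opposite signs. Pairs of the 7 with the other 5 range from −0.432 to 0.6, and length values of the other 5 from −0.370 to 0.400.

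The same contrast was then tested in WT mock and the 4 MG groups, where no replicate 3 library was low in CCA1. Here replicate 3 changed against its mates for 166 genes (0.8%) by edgeR's quasi-likelihood test at an adjusted p under 0.05, 69 higher (0.333%) and 97 lower (0.468%), with 2434 at an unadjusted p under 0.05. None of the 26 morning and evening clock genes was called. CCA1 differed by −0.09 ± 0.24 and TOC1 by 0.09 ± 0.07, with 1 gene of each clock list at an unadjusted p under 0.05. None of the antenna, photosystem, starch or iron-uptake genes was called either. The CCA1 limit set these groups apart. The lack of calls for CCA1, and for genes that vary with it, was therefore partly fixed in advance. Without regard to the test, 424 genes (2.04%) stood above both mates in all 5 groups and 389 (1.87%) below. Of the 166 called genes, 23 were also outside both mates in the same direction in all 7 low-CCA1 groups and 11 in the opposite direction.

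Heat-shock genes were the largest listed group to rise in these replicate 3 libraries, 9 of 12 with a list median of 1.37. HSP101, a disaggregating chaperone, stood at 190, 134, 130 and 137 CPM in replicate 3 of WT, glyI2, OE1 and OE5 under MG, and at 25.5 to 76.7 CPM in the 8 mates. It was above both mates in 5 of 5 groups, WT mock included, and rose by 1.37 ± 0.15 (edgeR adjusted p = 0.00246). HSFA2, a heat-shock transcription factor, stood at 56.4, 41.0, 39.6 and 43.2 CPM against 6.66 to 23.9 CPM under MG (1.46 ± 0.18, edgeR adjusted p = 0.00366, above in 5 of 5 groups). In WT mock it was at 0.760 CPM against 0.640 and 0.613 CPM. The small heat-shock gene HSP17.6II rose by 1.98 ± 0.20 (edgeR adjusted p = 0.00246) and the chaperone gene HSP90.1 by 1.13 ± 0.14 (edgeR adjusted p = 0.00326), both above in 5 of 5 groups. These 4 genes and BT2 (0.94 ± 0.11, edgeR adjusted p = 0.00246) kept their call when any 1 of the 15 libraries was left out. HSP17.6A lost its call in 2 of 15 such fits, without replicate 2 of OE1 MG or replicate 3 of OE5 MG, and HSP17.4, HSP26.5, HSP70 and HSFA7A in 9 to 10. In the 7 low-CCA1 groups the heat-shock list had a median of −0.66, with 1 member, HSP70, outside in all 7.

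Listed genes that fell in the same test were few. FT, the flowering signal, was 0 to 0.349 CPM in the 5 replicate 3 libraries and 0.330 to 2.56 CPM in their mates (−2.68 ± 0.53, edgeR adjusted p = 0.0337, below in 5 of 5 groups). COR15B (−2.17 ± 0.45), RD29A (−1.38 ± 0.27), LOX2 (−1.16 ± 0.23) and VSP2 (−1.95 ± 0.40) also fell, each below both mates in 5 of 5 groups with an edgeR adjusted p of 0.0337 to 0.0465. Each of these 5 lost its call in 9 to 12 of the 15 fits that leave out a library. The flavonoid list had a median of −1.33 with 13 of 15 at an unadjusted p under 0.05 and 0 called. The count of 166 rested on single libraries. It was 31 without replicate 3 of OE5 MG, 38 without replicate 3 of WT MG, 42 without replicate 3 of OE1 MG and 53 without replicate 3 of WT mock. It was 61 without replicate 2 of OE1 MG or replicate 1 of OE5 MG, 74 and 95 without replicates 3 and 2 of glyI2 MG, and 75 and 101 without replicates 1 and 2 of WT mock.

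The mates were also compared with each other, replicate 2 against replicate 1 in the 7 groups. This changed 38 genes (0.183%), 18 higher (0.0868%) and 20 lower (0.0964%), with 1982 at an unadjusted p under 0.05. Among the listed genes LNK3, LNK4, PIF4 and IAA29 were lower in replicate 2. LNK4 differed by −0.98 ± 0.12 (edgeR adjusted p = 0.016) and PIF4 by −1.18 ± 0.16 (edgeR adjusted p = 0.0242), where replicate 3 had stood −6.32 and −3.49 from the mean of the mates. Higher in replicate 2 were 5 of the 15 flavonoid genes, F3'H, a flavonoid hydroxylase, among them (1.44 ± 0.17, edgeR adjusted p = 0.016), together with NRT2.1 and VSP1. When each of the 14 libraries was left out in turn, LNK4 and F3'H lost their call in 6 fits, NRT2.1 in 8, and LNK3, PIF4 and IAA29 in 10. CCA1, LHY and TOC1 were not called in this comparison (edgeR adjusted p = 0.849, 0.978 and 0.790). Over the lists, however, replicate 2 lay below replicate 1 by a median of −0.43 for the morning clock genes, 9 of 14 of them at an unadjusted p under 0.05 and 2 called. The median was −0.56 for the antenna genes (12 of 20 at an unadjusted p under 0.05, 0 called) and −0.70 for the PIF and shade genes (8 of 13, 2 called), against 0.0014 over all genes. The count fell to 2 without either replicate of glyI2 NaCl, OE1 mock or OE5 NaCl and rose to 126 and 122 without replicates 1 and 2 of WT NaCl. It was 15 without either replicate of glyI2 mock, 16 without either of OE5 mock, and 13 or 16 without one of OE1 NaCl.

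Whether the replicate 3 difference had another size under NaCl than under mock was tested in glyI2, OE1 and OE5, where both treatments have a low-CCA1 library. The interaction was called for 6 genes (0.0289%), 5 higher (0.0241%) and 1 lower (0.00482%), with 601 at an unadjusted p under 0.05. FRO2 stood at 37.0 ± 10.6 CPM (SD, n = 6) in the mock mates and at 0.85 ± 0.22 CPM (n = 3) in the mock replicate 3 libraries. Under NaCl the mates were at 1.86 ± 0.35 CPM (n = 6) and replicate 3 at 0.82 ± 0.08 CPM (n = 3). The difference between replicate 3 and mates was thus smaller under NaCl in 3 of 3 genotypes (interaction 4.25 ± 0.40, edgeR adjusted p = 0.000542). MTPA2, a vacuolar metal transporter, stood at 13.0 ± 3.52 CPM in mock mates and 0.99 ± 0.43 CPM in mock replicate 3, and at 2.89 ± 0.53 and 2.43 ± 0.29 CPM under NaCl (3.44 ± 0.39, edgeR adjusted p = 0.0035). Both genes kept their call in all 18 fits that leave out a library.

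The other 4 calls were less stable. THI2.2, a thionin gene, stood at 26.3 ± 17.7 CPM in mock mates and 1.11 ± 0.22 CPM in mock replicate 3, and under NaCl at 1.91 ± 0.67 and 1.55 ± 0.44 CPM (4.17 ± 0.57, edgeR adjusted p = 0.0204). GBSS1 was at 61.3 ± 9.05 and 7.31 ± 2.85 CPM under mock, and at 63.0 ± 14.1 and 30.5 ± 10.3 CPM under NaCl (2.02 ± 0.30, edgeR adjusted p = 0.0334). BETA-OHASE 2, a carotenoid hydroxylase, was at 25.9 ± 3.36 and 1.19 ± 0.53 CPM under mock, and at 25.0 ± 4.08 and 3.96 ± 0.13 CPM under NaCl (1.83 ± 0.29, edgeR adjusted p = 0.0489). NRT1.8, a nitrate transporter, stood under mock at 4.16 ± 0.59 CPM in mates and at 3.22, 3.61 and 8.40 CPM in replicate 3 of glyI2, OE1 and OE5, the last above every mock mate. It stood at 59.4 ± 11.5 CPM in mates against 16.3 ± 1.57 CPM in replicate 3 under NaCl (−2.07 ± 0.30, edgeR adjusted p = 0.0334). Without replicate 3 of OE5 mock the NRT1.8 interaction was −1.63 (edgeR adjusted p = 0.15, against 0.0231 to 0.204 over all such fits). Calls were lost in 7 of 18 fits that leave out a library for THI2.2, 13 for GBSS1, 15 for BETA-OHASE 2 and 14 for NRT1.8. The count fell to 3 without replicate 1 or 3 of glyI2 mock, replicate 1 of glyI2 NaCl or replicate 1 or 2 of OE1 mock. It fell to 2 without replicate 3 of glyI2 NaCl, OE1 mock, OE1 NaCl or OE5 NaCl, replicate 1 of OE5 mock or replicate 2 of OE5 NaCl. With WT NaCl added, NRT1.8 was no longer called (edgeR adjusted p = 0.386). With the replicate number as a block BETA-OHASE 2 was not (edgeR adjusted p = 0.0633).

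**Figure D4:**
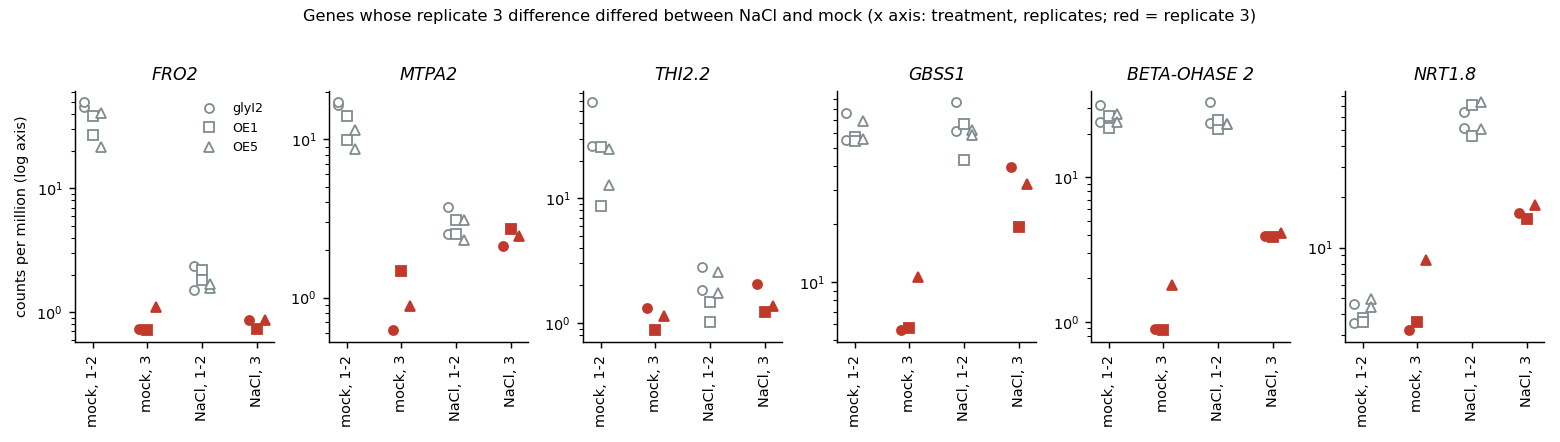
CPM on a log axis of the 6 genes with a called interaction, in mates (open grey) and replicate 3 (red) of glyI2 (circles), OE1 (squares) and OE5 (triangles) under mock and NaCl. For FRO2 the mock mates lie at 21.8 to 49.5 CPM and the other 3 classes at 0.713 to 2.37 CPM, and for NRT1.8 the NaCl mates lie above the NaCl replicate 3 libraries.

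The response to NaCl was then measured within each class of the same 3 genotypes. Among the mates 4216 genes (20.3%) changed, 2210 up (10.7%) and 2006 down (9.67%). Among the replicate 3 libraries, with 1 library a group, 1273 (6.14%) changed, 793 up (3.82%) and 480 down (2.31%). The classes share no library, but both responses were contrasts of the same fit, which held the libraries of both classes. Scatter was estimated from all of these together, so the replicate 3 calls also depend on the mates. The shared calls are therefore not agreement between independent tests. Of the genes called in replicate 3, 1164 were called the same way in the mates and 2 the opposite way. Together these are 91.6% of all calls in replicate 3 and 27.7% of those in the mates. Across the tested genes, which are not independent, Pearson's r between the responses was 0.809. ABA genes rose in both classes, 13 of 19 in the mates and 11 in replicate 3. The phosphatase gene HAI2 rose by 6.10 ± 0.25 (edgeR adjusted p = 1.38e-09) and 5.88 ± 0.37 (edgeR adjusted p = 5.72e-07). Cold and dehydration genes did likewise, 13 of 15 and 12, with RD29B at 6.53 ± 0.25 (edgeR adjusted p = 5.39e-10) and 5.63 ± 0.38 (edgeR adjusted p = 1.35e-06). Starch breakdown genes rose for 8 and 6 of 14. Iron-uptake genes fell for 15 of 26 in the mates and for 4 in replicate 3, where 1, MTPA2, rose. Photosystem genes fell for 13 of 28 in the mates and 0 of 28 in replicate 3. Of these 2 lists only FRO2 and MTPA2 had a called interaction, so the counts do not show that the other members responded differently. The replicate 3 count fell to 572 without replicate 3 of glyI2 mock, 663 and 669 without that of OE1 mock and OE1 NaCl, and 737 without that of OE5 NaCl.

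**Figure D5:**
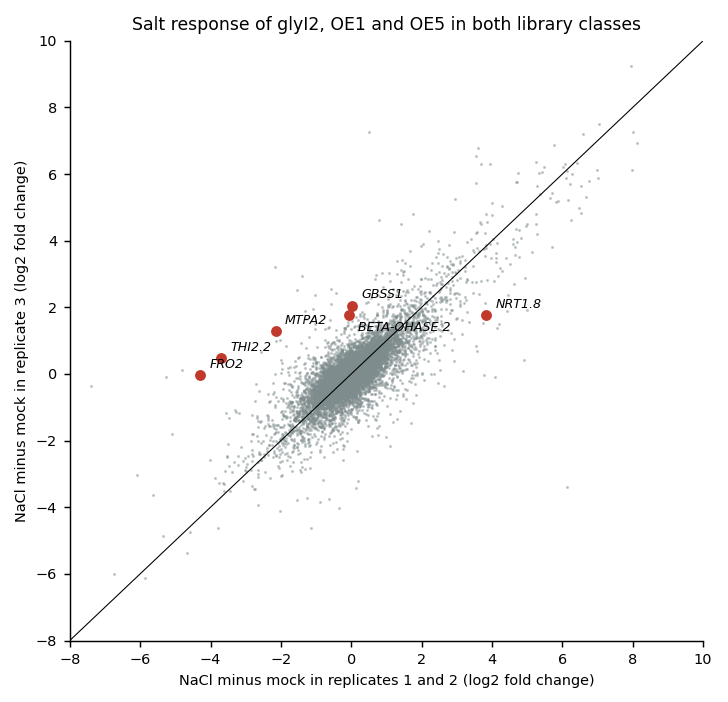
Log2 fold change of NaCl against mock in glyI2, OE1 and OE5, measured in replicates 1 and 2 (horizontal axis) and in replicate 3 (vertical axis), with 1 grey point for each of 20748 genes, the line of equality and the 6 genes with a called interaction in red. Points follow the line (r = 0.809), and FRO2 lies at −4.29 in the mates and −0.04 in replicate 3.

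The replicate 3 difference was also compared between glyI2, OE1 and OE5 under both treatments. By edgeR 0 genes were called, with 2643 at an unadjusted p under 0.05, and DESeq2 called 104.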

How the data were processed

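Poly(A) RNA had been sequenced on the BGISEQ-500 platform. The authors deposited whole-number counts per gene and FPKM values per gene for 32678 genes. The submitters' processing notes name HISAT2 2.0.4 and HTSeq. The strand setting of the counting is not stated in the labels, so a gene that shares its locus with a gene on either strand has an uncertain value. All 279 organelle genes were at 0. The 3 chromatin samples were not analysed here.

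The tool for all main tests was edgeR 4.0.16 in R 4.3.3 (robust quasi-likelihood, TMM scaling, default expression filter over the 36 libraries), with the group as a block. A gene was called when its p, adjusted by Benjamini and Hochberg's method across the 20748 genes, was under 0.05. The contrast of replicate 3 with mates used 21 libraries in the 7 groups and 15 in the other 5, the comparison of mates 14, and the interaction and NaCl contrasts 18. Log2 CPM per library used a prior count of 2, which shrinks differences of low genes. A gene is above or below both mates where replicate 3 lies outside replicates 1 and 2 of its group. Gene lengths were worked back from the deposited FPKM for 14683 genes. On simulated counts the tests recovered 90%, 90%, 82% and 19% of genes changed by 1 on the log2 scale for the 7 groups, the other 5, the mates and the interaction, and 100%, 100%, 99% and 86% of those changed by 2. All changed genes in the simulation had a mean log2 CPM over 1, so recovery of weaker genes was not measured.

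The members, the 34 gene lists and the naming rule were chosen with earlier results of these data known. The rule covers the clock lists in full, up to 4 members of each other list by the size of the 7-group difference, up to 10 genes each way by that difference (mean log2 CPM 1 or more), and called genes within the same limits. Genes printed were picked from these after their values were seen, as were those named only to complete a count, such as BGLU42, BBX22, CRY1, IMA2, IMA3, BTS, OPT3, ADG1, SBE2.1, ISA1, CYP707A2, CYCD3;1, C4H and SAG13. Of 422 list members 7 had a name other than the reference table's (TAIR10.1, 31912 identifiers matched). The glyoxalases GLYI3 and GLYII4 were exempt by rule and kept, and 5 were dropped, among them FIT, a main regulator of iron uptake, which the iron counts therefore lack. Coordinates are left out, since the submitters' processing notes name TAIR10 and not TAIR10.1. Replicate numbers were not taken as pairs, since not every correlation of same-numbered libraries' deviations between the 7 groups exceeded 0.1. For replicates 1, 2 and 3 the median was 0.386, 0.192 and 0.589, the lowest −0.212, −0.387 and 0.179, and 18, 12 and 21 of 21 pairs were over 0.1. Within glyI2, OE1 and OE5 under mock and NaCl the medians were 0.482, 0.192 and 0.522, with 14, 9 and 15 of 15 pairs over 0.1. The deviations are from group means that include replicate 3. Its shift therefore enters all of them, and the check cannot settle whether equal numbers mark pairs. A replicate block was fitted as an alternative. Alternatives were DESeq2 1.42.0, RLE scaling, no filter, limma 3.58.1 on log2(FPKM + 0.1), a replicate block, 1 fit of all 36 libraries, WT NaCl added, and each library left out. Fits on mock, NaCl or MG groups only were added after the data were seen.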

Additional observations from a re-analysis of the deposited data

Results flagged for a closer look

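The difference between replicate 3 and its mates was larger or smaller under NaCl than under mock for 6 genes, tested as an interaction over glyI2, OE1 and OE5. On the log2 scale the interaction was 4.248 for FRO2, 4.172 for THI2.2, 3.436 for MTPA2, 2.021 for GBSS1, 1.828 for BETA-OHASE 2 and −2.065 for NRT1.8. The first 5 had a smaller gap under NaCl in 3 of 3 genotypes. For NRT1.8 replicate 3 lay below its mates under NaCl in 3 of 3 genotypes, while under mock it lay above both mates in OE5, below both in glyI2 and between them in OE1. No single group stood apart among the 7 differences of any of the 64 genes examined (0 beyond Dixon's limit).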

How the results depend on the processing

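The 7-group description had 8518 genes at an adjusted p under 0.05 by edgeR, 2904 with mock groups only and 4831 with NaCl groups only, both of which hold fewer libraries. Its split was 4155 higher and 4363 lower, and 8130 and 2127 by limma on log2(FPKM + 0.1), where the median of all genes was 0.291. Relative to that median each of the 34 list medians kept its sign by limma, the morning clock list standing at −2.68 against −3.20 in the main fit. With mock groups only, the dark and sugar starvation, photorespiration, nitrate, antioxidant, root hair, shoot and seed lists changed sign relative to all genes. The root hair list stood at 0.35 there against −0.04 in the main fit, and the nitrate list at −0.03 against 0.14. IRT1 was −5.30 by limma, and −5.08 with NaCl groups only, and with mock groups only FRO2 was −5.42. The 166 calls in the other 5 groups became 673 with DESeq2, 324 with the replicate block, 282 with all 36 libraries in the fit and 47 with MG groups only, where HSP70, HSFA7A, FT and COR15B were no longer called. The 38 calls between mates became 352 with DESeq2 and 415 with all 36 libraries. The 6 interaction calls became 23 with DESeq2, and BETA-OHASE 2 was lost with RLE scaling (1.84) and the replicate block (1.83). The genotype comparison had 104 calls with DESeq2 and 3 with all 36 libraries. The causes were not tested. With the replicate block the other counts were 8724 for the 7 groups, 5 for the interaction, 4525 and 1453 for NaCl in mates and replicate 3, and 0 between genotypes. Leaving out 1 library gave 7340 to 8758 calls for the 7 groups, 31 to 221 for the other 5, 2 to 126 between mates, 2 to 5 for the interaction, 3214 to 4353 and 572 to 1443 for NaCl in mates and replicate 3, and 0 to 0 between genotypes. None of the refitted genes changed direction. NaCl in replicate 3 rests on 1 library a group, and the interaction test recovered few changes as small as 1 on the log2 scale.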
